A study of Homo sapiens with 6 samples.

Results

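The carboxylesterase genes CES1, CES2, CES3 and CES4A were followed in gene-level RNA-seq counts of A549 cells, a human lung adenocarcinoma line. They are 4 of the 58721 rows of the count table and 4 of the 20713 genes that passed the filter on low counts, and all 4 passed it. The genes are listed by name as family members that are neighbours on chromosome 16, and the family was chosen by its R98W against WT values in an earlier analysis of the same counts, so the differences between R98W and WT of these 4 genes are a description, without a test. CES5A, the remaining human family member, and the CES1 pseudogenes CES1P1 and CES1P2 are given beside them.

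In 3 libraries the cells overexpressed KAT8 carrying the R98W change (R98W), and in 3 libraries they overexpressed wild-type KAT8 (WT). KAT8, also called MOF, is a lysine acetyltransferase of histones, and R98W lies in the domain that the series title calls the Tudor-knot. By the labels both groups thus carry overexpressed KAT8, and no library labelled as without it was used here. The labels give neither the promoter of the construct nor whether the cells were clones, and they do not say whether replicates were separate cultures, so each p-value reflects the scatter of these libraries alone, which may be technical.

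Levels are given as CPM, counts scaled to a common library total after TMM adjustment, and 3 values in a row are those of replicates 1 to 3. The R98W libraries held 166, 196 and 236 CPM of KAT8, against 12.2, 195 and 184 CPM in the WT libraries. KAT8 did not pass the threshold with or without WT replicate 1 (edgeR adjusted p = 0.362 and 0.687), but did with the replicate number as a block (log2 fold change 1.22, edgeR adjusted p = 0.00079) and with no filter on low counts (0.61, edgeR adjusted p = 6.7e-16). With no filter the log2 fold change was that of the main fit, also 0.61, and only the SE differed (0.07 against 0.48). That call therefore rests on the setting, and the KAT8 levels of the groups overlapped. The library labelled WT replicate 1 thus stood apart in the targeted gene, with a level that goes against its overexpression label, and the main values below are also given without it. Totals ran from 101792328 to 108742650 counts in R98W and from 90007121 to 110152936 counts in WT. The cells had keratins KRT8, KRT18 and KRT7 as abundant transcripts, and the 13 listed epithelial and lung markers summed to 7979 to 8604 CPM in R98W and 8589 to 8777 CPM in WT, and CDKN2A, which A549 cells have lost, had 0 counts in all 6 libraries. Of these markers 4 stayed under 0.1 CPM in every library (SFTPA1, SFTPB, AQP5 and SCGB1A1), among them surfactant genes of the alveolus. The lung markers NKX2-1 and SFTPC were low as well, at no more than 0.132 and 0.105 CPM in any library. NAPSA averaged 0.452 CPM in R98W and 0.946 CPM in WT, and EPCAM 3.92 and 7.10 CPM. KRT19 was higher in R98W, with means of 54.7 CPM for R98W and 39.4 CPM for WT.

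Carboxylesterases are serine hydrolases of the alpha/beta fold that cleave esters, amides and thioesters, mostly inside the endoplasmic reticulum (ER). CES1, abundant in liver and also made in lung, hydrolyses drugs with a large acyl group as well as cholesteryl esters and triacylglycerol. CES2, abundant in intestine, prefers substrates with a large alcohol group and activates the prodrug irinotecan. CES3 is a less studied member with weak reported activity toward irinotecan, and CES4A is a predicted secreted member about which little is known.

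The shared chemistry shows in the coding sequences around the nucleophilic serine, printed here for the 4 genes. Genes outside the family were not searched for this stretch, so it does not set the family apart. Each line holds 45 bases of the main GENCODE transcript on its own strand, and capitals mark the 5 codons of the Gly-X-Ser-X-Gly motif.
CES1: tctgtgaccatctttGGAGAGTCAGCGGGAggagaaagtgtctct
CES2: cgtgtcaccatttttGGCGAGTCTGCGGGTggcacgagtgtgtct
CES3: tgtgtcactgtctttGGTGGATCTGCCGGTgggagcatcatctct
CES4A: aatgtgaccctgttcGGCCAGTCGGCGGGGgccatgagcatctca
The motif began at coding base 658 in CES1, 868 in CES2, 679 in CES3 and 724 in CES4A, with coding sequences of 1704, 1869, 1713 and 1752 bases.

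All 4 genes lie on chromosome 16 (hg38, GENCODE 29), in 2 groups. CES1 (ENSG00000198848, 55802851 to 55833337, minus strand) lies beside CES5A, with CES1P1 and CES1P2 on its other side. CES2 (ENSG00000172831, 66934444 to 66945096), CES3 (ENSG00000172828, 66961237 to 66975148) and CES4A (ENSG00000172824, 66988589 to 67009758) follow each other on the plus strand. CES2 and CES3 are 16140 bases apart, and CES3 and CES4A 13440 bases.

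Sequence similarity bears on how reads could be assigned to the genes. Coding sequences of the 4 genes were 62.6% to 67.6% identical to each other over aligned bases. Of the distinct 50-base stretches in CES3 transcripts, 1.68% also occurred in transcripts of another gene, against 29.8% for CES1, of which nearly all were shared with CES1P1. The shares were 9.01% for CES2 and 12.3% for CES4A, mostly from AC009084.3 and AC009084.2, which are annotated over these genes on the opposite strand. AC009084.3 had 0 counts in all 6 libraries, as had AC009084.1, a transcript annotated on the same strand across CES2 and CES3. Both share sequence with these genes, and how reads in shared stretches were counted is not given. Their 0 counts therefore do not show that they were unexpressed or that the counts of CES2 and CES3 were unaffected.

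CES3 was the member that differed most. The 3 R98W libraries held 81, 69 and 60 counts of it, against 440, 686 and 623 counts in the WT libraries. On the CPM scale these were 0.825, 0.713 and 0.568 CPM in R98W and 4.42, 5.96 and 6.56 CPM in WT. The highest R98W library lay far below the lowest WT library, which was WT replicate 1, the library with little KAT8. The means were 0.702 ± 0.129 CPM in R98W and 5.65 ± 1.11 CPM in WT (SD, n = 3 each), so that R98W held 12.4% of the WT level. The log2 fold change of R98W over WT was -3.01 (SE 0.19, 95% interval -3.40 to -2.61). Without WT replicate 1 it was -3.17 (SE 0.18). In bulk RNA, fewer expressing cells and less RNA per cell cannot be told apart.

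CES3 held rank 52 from the lowest log2 fold change among the 20713 tested genes, and rank 7 among the 12156 protein-coding genes that averaged 1 CPM or more. A fall of at least 3 on the log2 scale with an adjusted p under 0.05 was found in 53 tested genes, 0.256% of them. This contrast also chose the gene, so the ranks describe its size and nothing else.

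CES1 was higher in R98W by a smaller factor. The R98W libraries held 33.3, 29.6 and 28.7 CPM, against 23.4, 21.5 and 18.9 CPM in the WT libraries. Each R98W library was above each WT library, and WT replicate 1 was the WT library closest to R98W. The means of 30.5 ± 2.41 CPM in R98W and 21.3 ± 2.21 CPM in WT (SD, n = 3 each) gave a ratio of 1.43 and a log2 fold change of 0.52 (SE 0.09, 95% interval 0.34 to 0.70). The log2 fold change was 0.58 (SE 0.09) without WT replicate 1.

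The pseudogene CES1P1, whose annotated transcript was 96.3% identical to CES1 over 1704 bases, moved with it. CES1P1 had 7.86, 7.47 and 8.20 CPM in R98W and 5.42, 5.75 and 4.77 CPM in WT, without overlap, and rose by 0.56 on the log2 scale (SE 0.12, edgeR adjusted p = 0.00085). CES1P2 had 1.66 ± 0.05 CPM in R98W and 1.26 ± 0.21 CPM in WT (SD, n = 3 each) and did not pass the threshold (log2 fold change 0.39, SE 0.19, edgeR adjusted p = 0.129), though it did after a correction for expression level (0.52, edgeR adjusted p = 0.0446). The split of reads between CES1 and these copies is uncertain. Summed over the 3 genes, the R98W libraries held 42.8, 38.8 and 38.5 CPM, against 29.8, 28.7 and 25.0 CPM in the WT libraries, a log2 ratio of 0.52 that equals the log2 fold change of CES1 alone to 2 decimals. The log2 ratio of CES1 to CES1P1 per kb of exon was 2.08 ± 0.14 in R98W and 2.12 ± 0.10 in WT.

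CES2 was the steadiest member. The R98W libraries held 51.2, 50.7 and 54.5 CPM, against 54.7, 52.0 and 52.2 CPM in the WT libraries. The groups overlapped, with means of 52.1 ± 2.04 CPM in R98W and 53.0 ± 1.505 CPM in WT (SD, n = 3 each). The log2 fold change was -0.02 (SE 0.07), with a 95% interval of -0.16 to 0.12, which corresponds to ratios from 0.893 to 1.08. Larger changes in either direction lay outside it.

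CES4A was low in both groups, and its groups overlapped too. The R98W libraries held 1.54, 1.57 and 1.44 CPM, against 1.65, 1.70 and 1.41 CPM in the WT libraries. These values rested on 151 to 152 counts per R98W library and 134 to 195 counts per WT library. The log2 fold change was -0.07 (SE 0.18), with a 95% interval of -0.45 to 0.32, or ratios from 0.732 to 1.247. The interval is wider than that of CES2, so a change of CES4A within these ratios cannot be told from none. AC009084.2, on the opposite strand over the end of CES4A, was low in both groups, with means of 0.147 CPM for R98W libraries and 0.124 CPM for WT libraries.

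CES5A, which encodes a secreted member best known from cat urine as cauxin, was not expressed at a level that passed the filter. It had 4, 0 and 0 counts in R98W and 0 counts in each WT library, and 0 counts over the WT group allow up to 0.00969 CPM, for counting error only.

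**Figure D1:**
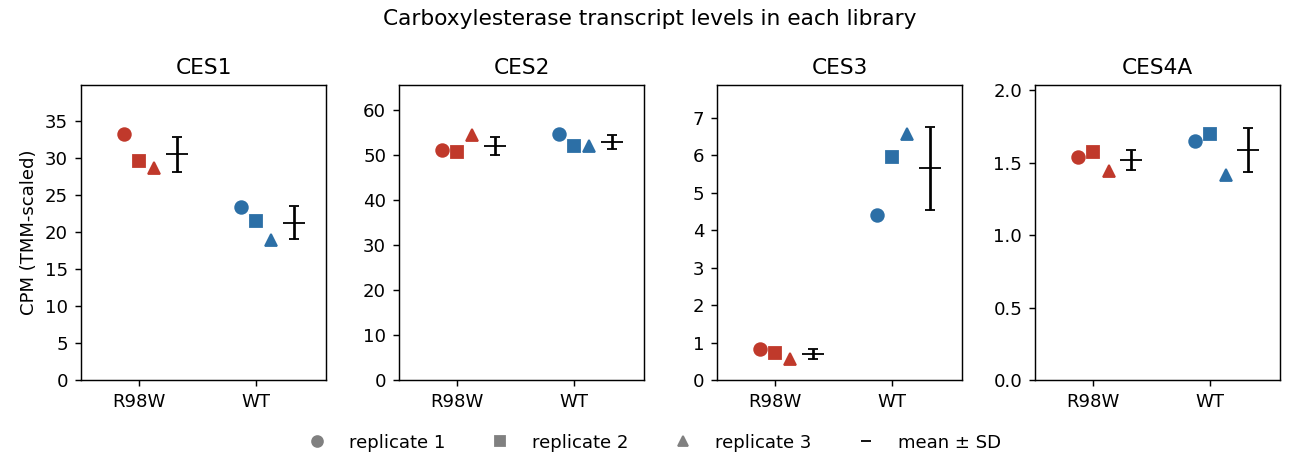
Transcript levels of CES1, CES2, CES3 and CES4A in CPM on linear axes from 0, with R98W left of WT; symbols are replicates and bars are mean ± SD (n = 3). CES1 and CES3 do not overlap between the groups, while CES2 and CES4A do.

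In the fit over all genes, 1 of the 4 members passed the threshold as higher in R98W (CES1) and 1 as lower (CES3), where 34.8% of the 20713 tested genes passed it, 16.2% as higher and 18.5% as lower. R98W and WT libraries were fully separated in 2 of the 4 members, against 45.6% of all tested genes. Without WT replicate 1 the same members passed, where 33.6% of 21443 tested genes did, 15.2% as higher and 18.4% as lower. A separation of groups, as used here, means that every R98W library lay on 1 side of every WT library, with no overlap. Since the members were listed with these results known, the counts are given without a reading. The median log2 fold change of all tested genes was -0.005. For tested genes averaging 1 to 8 CPM over both groups, as CES3 and CES4A did, it was -0.105.

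The order of the members by level per length changed with the group. Per kb of exon, R98W had 10.4 ± 0.82 CPM per kb of CES1, 9.75 ± 0.38 of CES2, 0.349 ± 0.016 of CES4A and 0.142 ± 0.026 of CES3 (SD, n = 3). In WT the levels were 9.91 ± 0.28 CPM per kb of CES2, 7.24 ± 0.75 of CES1, 1.14 ± 0.22 of CES3 and 0.365 ± 0.035 of CES4A (SD, n = 3). In R98W CES1 and CES2, which follow each other in this order by level, overlapped, with ranges of 9.77 to 11.3 and 9.49 to 10.2 CPM per kb. Other genes that follow each other in this order did not overlap in either group, and CES3 and CES4A stood in opposite order in the groups. Gene-level exon lengths join all annotated transcripts, so the order holds only if the transcripts in use have lengths in similar proportion.

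**Figure D2:**
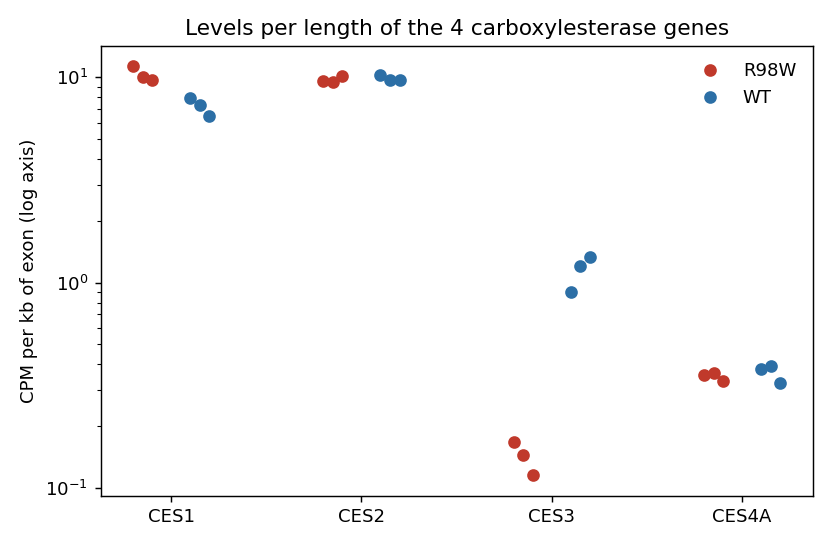
Levels of the 4 genes in CPM per kb of exon on a log axis, 1 point per library, with R98W left of WT. CES3 lies under CES4A in the R98W libraries and above it in the WT libraries.

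Ratios between neighbouring genes within a library do not depend on the scaling of that library. The log2 ratio of CES3 to CES4A per kb was -1.08, -1.32 and -1.53 in the R98W libraries, against 1.24, 1.63 and 2.03 in the WT libraries, a difference of -2.94 between the means. Relative to CES2, its neighbour on the other side, CES3 stood at -6.12 ± 0.32 in R98W and -3.13 ± 0.34 in WT (SD, n = 3 each). The log2 ratio of CES4A to CES2, which flank CES3, was -4.80 ± 0.12 in R98W and -4.77 ± 0.13 in WT. Within this row of 3 genes, both ratios that involve CES3 differed between the groups without overlap, and the ratio of its neighbours overlapped.

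Taken as shares of the summed level per kb of the 4 genes, CES3 made up 0.780%, 0.719% and 0.564% in the R98W libraries, against 4.60%, 6.48% and 7.44% in the WT libraries. CES1 made up 50.3% ± 2.49 in R98W and 38.7% ± 2.41 in WT, and CES2 47.3% ± 2.61 in R98W and 53.1% ± 1.31 in WT (SD, n = 3 each). Shares of a sum are tied to each other, so a lower share of CES2 goes with the higher CES1. The sum itself was 20.6 ± 0.70 CPM per kb in R98W and 18.7 ± 0.80 CPM per kb in WT.

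CES2 shares its promoter region with CIAO2B, a factor of cytosolic iron-sulfur protein assembly, which is transcribed away from it, with 20 bases between the annotated genes. CIAO2B had 24.5 ± 2.25 CPM in R98W and 23.2 ± 3.88 CPM in WT (SD, n = 3 each) and did not pass the threshold (log2 fold change 0.08, SE 0.10, edgeR adjusted p = 0.61). The window at the upstream CES2 start, from 250 bases before to 50 bases after it (RefSeq, GRCh38.p14, plus strand, chr16:66934221-66934520), is printed because both genes start inside it; capitals mark CpG dinucleotides.
CES2 promoter: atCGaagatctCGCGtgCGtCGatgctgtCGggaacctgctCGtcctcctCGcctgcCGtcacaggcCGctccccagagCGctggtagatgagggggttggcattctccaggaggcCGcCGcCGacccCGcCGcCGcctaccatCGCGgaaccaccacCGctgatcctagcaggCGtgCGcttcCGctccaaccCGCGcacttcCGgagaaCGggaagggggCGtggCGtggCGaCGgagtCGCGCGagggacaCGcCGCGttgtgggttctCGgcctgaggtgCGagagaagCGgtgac
This window held 40 CpG dinucleotides, where the median over 35116 RefSeq windows of the same length was 14 and 92.4% of them held fewer. The window at the upstream CES4A start held 5 CpG dinucleotides. The letters GGGCGG, searched on both strands, were absent from the CES2 window, occurred in the CES4A window and were held by 45% of all windows. CES2 and CES4A matched windows of the table, and CES1 and CES3 did not.

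Most tested genes around the CES2 to CES4A row differed little, with CES3 and CA7 as the large differences. Within 500 kb on either side 40 other genes were tested, of which 4 were higher and 6 lower in R98W. That was 25%, against 34.8% of all tested genes, with a median log2 fold change of -0.02. Without WT replicate 1, 3 were higher and 3 lower of 44 tested. On the side of CES2, the cadherin gene CDH16 had 2.58 ± 0.48 CPM in R98W and 3.63 ± 0.51 CPM in WT and fell by 0.49 on the log2 scale (SE 0.16, edgeR adjusted p = 0.0243), a call that ended without R98W replicate 2, R98W replicate 3, WT replicate 1 or WT replicate 3 (edgeR adjusted p 0.0557 to 0.122) and after a correction for expression level (0.0961). RRAD, a small GTPase gene between CDH16 and CIAO2B, was low, with means of 0.291 CPM for R98W and 0.289 CPM for WT. On the side of CES4A, CBFB, the partner of the RUNX transcription factors, had 70.9 ± 3.02 CPM in R98W and 53.5 ± 4.29 CPM in WT and rose by 0.41 (SE 0.07, edgeR adjusted p = 0.00021). C16orf70 had a log2 fold change of -0.01, and B3GNT9, a glycosyltransferase gene that overlaps it on the other strand, fell by 0.36 (edgeR adjusted p = 0.0243), but not past the threshold without R98W replicate 2, R98W replicate 3 or WT replicate 1 (edgeR adjusted p 0.066 to 0.104) or after that correction (0.131).

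CA7, a carbonic anhydrase gene 119 kb from CES3 by midpoint, was the other large difference of the region. It had 0 counts in each R98W library, against 11, 26 and 15 counts in WT replicates 1 to 3. Taking 3 counts over the R98W group as the floor, the pooled WT level of 0.168 CPM was 16.8 times that floor. This allows for counting error in R98W only, and for no error in WT. The gene passed the threshold (edgeR adjusted p = 0.00024). CA7 lies inside NAE1 on the other strand, and NAE1, with means of 87.0 CPM for R98W and 84.9 CPM for WT, had a log2 fold change of 0.03. The other called genes of the window, named after their values were seen, were NOL3, FHOD1 and HSD11B2 as higher and LRRC29, ZDHHC1 and KIAA0895L as lower, with log2 fold changes between -0.87 and 0.58. The calls of HSD11B2, LRRC29 and KIAA0895L ended without WT replicate 1, with edgeR adjusted p of 0.0643, 0.179 and 0.0864.

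**Figure D3:**
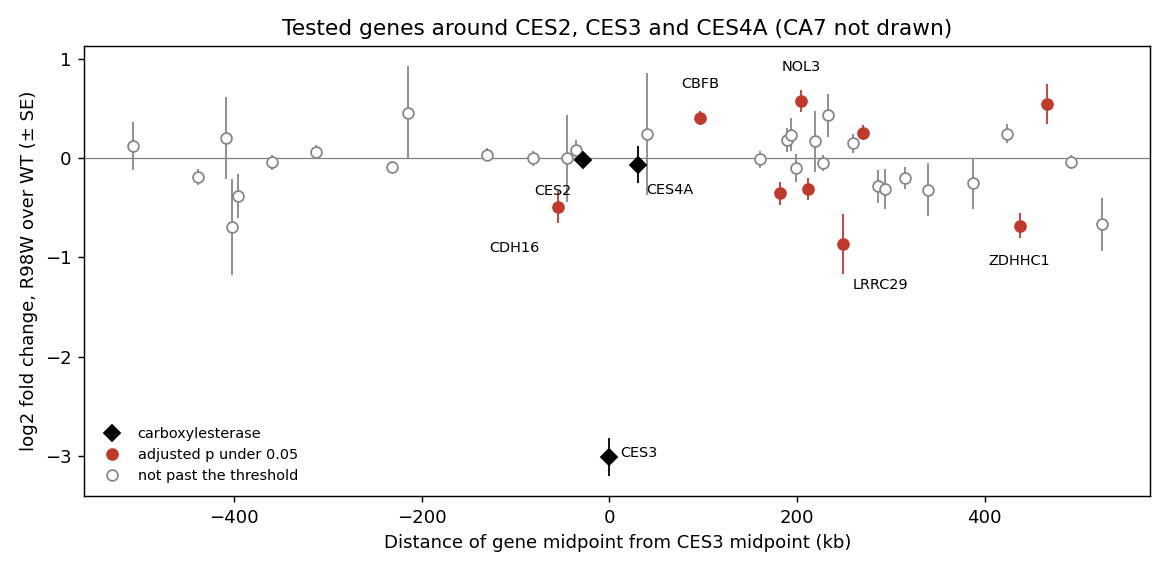
Log2 fold changes (R98W over WT, ± SE) of the tested genes within 500 kb of the CES2 to CES4A row, by distance of the gene midpoint from that of CES3 in kb; diamonds are carboxylesterases, filled circles passed the threshold and open circles did not. CES3 lies at -3.01 while CES2 and CES4A on either side lie near 0; CA7, with 0 counts in R98W, is not drawn.

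Fewer genes were expressed around CES1. Within 500 kb of CES1 to CES5A 6 genes outside the family were tested, 1 higher and 1 lower in R98W, the same counts as without WT replicate 1. That was 33.3%, against 34.8% of all tested genes. LPCAT2, which remodels phospholipids and makes platelet-activating factor, had 18.9 ± 0.81 CPM in R98W and 25.4 ± 2.08 CPM in WT and fell by 0.42 (SE 0.08, edgeR adjusted p = 0.0006). The protease gene MMP2, the G protein gene GNAO1, the processing factor NUDT21 and, farther away, the homeobox gene IRX5 had log2 fold changes of -0.33, -0.11, -0.04 and 0.40 and did not pass the threshold, apart from IRX5 after a correction for expression level (edgeR adjusted p = 0.0399). Over chromosome 16, 123 genes were higher and 180 lower of 962 tested outside the family, or 31.5% against 34.8% of all tested genes.

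Other genes of ester and lipid hydrolysis went both ways and by less than CES3. Of 51 listed hydrolases 49 were tested, of which 18 were higher and 9 lower in R98W, or 55.1% against 34.8% of all tested genes, with a median log2 fold change of 0.15 and a range of -1.27 to 1.40; without WT replicate 1 the counts were 17 and 7. ABHD3, a phospholipase, had 43.9 ± 1.85 CPM in R98W and 27.9 ± 0.95 CPM in WT (SD, n = 3 each), and rose by 0.66 (SE 0.07, edgeR adjusted p = 1.2e-06). The acyl-protein thioesterase LYPLA1 rose by 0.54. PNPLA4, which hydrolyses retinyl esters and acylglycerols, fell by 1.07. BCHE, butyrylcholinesterase, had the lowest fold change of this list, with 1.07 ± 0.17 CPM in R98W and 2.57 ± 0.41 CPM in WT, and fell by 1.27 (SE 0.19, edgeR adjusted p = 4.4e-05). ACHE, acetylcholinesterase, chosen here as the highest after the values were seen, had 0.995 ± 0.422 CPM in R98W and 0.377 ± 0.136 CPM in WT and rose by 1.40 (edgeR adjusted p = 0.0037).

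The irinotecan pathway, in which CES2 and more weakly CES1, CES3 and BCHE release the active topoisomerase inhibitor, was divided as well. Of 19 listed genes outside the family 18 were tested, with 3 higher and 4 lower and a median log2 fold change of -0.02. That was 38.9%, against 34.8% of all tested genes. Without WT replicate 1 the counts were again 3 and 4. The efflux pump ABCG2 had 209 ± 14.2 CPM in R98W and 155 ± 2.13 CPM in WT (SD, n = 3 each) and rose by 0.43 (SE 0.07, edgeR adjusted p = 4.8e-05). XRCC1, a scaffold of single-strand break repair, fell by 0.61 and the mitochondrial topoisomerase TOP1MT by 0.42.

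Enzymes of the next steps of drug metabolism also moved in both directions. Of 29 tested cytochrome P450 and monooxygenase genes 10 were higher and 3 lower. That was 44.8%, against 34.8% of all tested genes, with a median log2 fold change of 0.21. CYP4F12 had 11.3 ± 0.76 CPM in R98W and 6.02 ± 0.30 CPM in WT and rose by 0.91, CYP4F3, a hydroxylase of leukotriene B4, rose by 0.49 and CYP2S1 by 0.39, while the fatty acid hydroxylase CYP2U1 fell by 1.10. Of 31 tested conjugation and reduction enzymes 9 were higher and 8 lower, or 54.8% against the same 34.8%, with a median of 0.02. The arylamine acetyltransferase NAT1 had 2.90 ± 0.16 CPM in R98W and 7.44 ± 1.08 CPM in WT and fell by 1.36 (SE 0.13, edgeR adjusted p = 3.9e-07). The phenol sulfotransferase SULT1A1 fell by 0.94 and the glutathione transferase GSTM4 by 0.95, while the carbonyl reductase CBR1 rose by 0.52. SULT1A1, GSTM4 and the CYP4F genes have close copies, so their reads may be split, and GSTM4 overlaps GSTM2. The counts of both lists were the same without WT replicate 1.

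Neutral lipids are substrates of CES1. Of 22 tested genes of their storage and turnover 5 were higher and 4 lower, with a median log2 fold change of 0.09. That was 40.9%, against 34.8% of all tested genes. Without WT replicate 1 the counts were 6 and 3. Some genes of this list, NCEH1 and LIPE among them, were also counted among the hydrolases above. The cholesteryl ester hydrolase NCEH1 had 101 ± 2.12 CPM in R98W and 77.1 ± 2.97 CPM in WT and rose by 0.39 (SE 0.06, edgeR adjusted p = 0.00012). The phosphatidate phosphatase LPIN1 rose by 0.43. GPAM, an acyltransferase that begins glycerolipid synthesis, fell by 1.09, and LIPE, hormone-sensitive lipase, fell by 0.85; LIPE overlaps LIPE-AS1 on the other strand.

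Transcription factors reported elsewhere to act on carboxylesterase genes went both ways. Of 20 tested 3 were higher and 3 lower, or 30% against 34.8% of all tested genes, with a median log2 fold change of 0.06; without WT replicate 1, 3 were higher and 4 lower. The sterol regulator SREBF2 had 165 ± 8.01 CPM in R98W and 135 ± 9.91 CPM in WT (SD, n = 3 each) and rose by 0.29 (SE 0.07, edgeR adjusted p = 0.0029). The SREBF2 call ended after a correction for expression level, at an edgeR adjusted p of 0.0589. NR1H3, the liver X receptor alpha gene, fell by 0.87 and PPARD by 0.38. SREBF2 and NR1H3 overlap SREBF2-AS1 and ACP2 on the other strand, and ACP2 also fell, by 0.62. NR1I3, the constitutive androstane receptor gene, named after its values were seen, was near the detection limit, with 0.0589 ± 0.031 CPM in R98W and 0.263 ± 0.059 CPM in WT. NFE2L2 (NRF2), its inhibitor KEAP1 and the hepatocyte factor HNF4A, also named after their values were seen, had log2 fold changes of 0.17, 0.12 and -0.17 and did not pass the threshold.

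Of 14 tested genes of ER lumen retention and secretion 6 were higher and 2 lower. That was 57.1%, against 34.8% of all tested genes, with a median log2 fold change of 0.15. KDELR3, a receptor that returns ER proteins, fell by 0.46 (edgeR adjusted p = 0.00095) and overlaps DDX17 on the other strand, and the ER retention factor ERP44 fell by 0.30. The coat subunit SEC24D rose by 0.30 and the signal peptidase subunit SPCS3 by 0.35. Without WT replicate 1 the counts were 5 and 2.

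**Figure D4:**
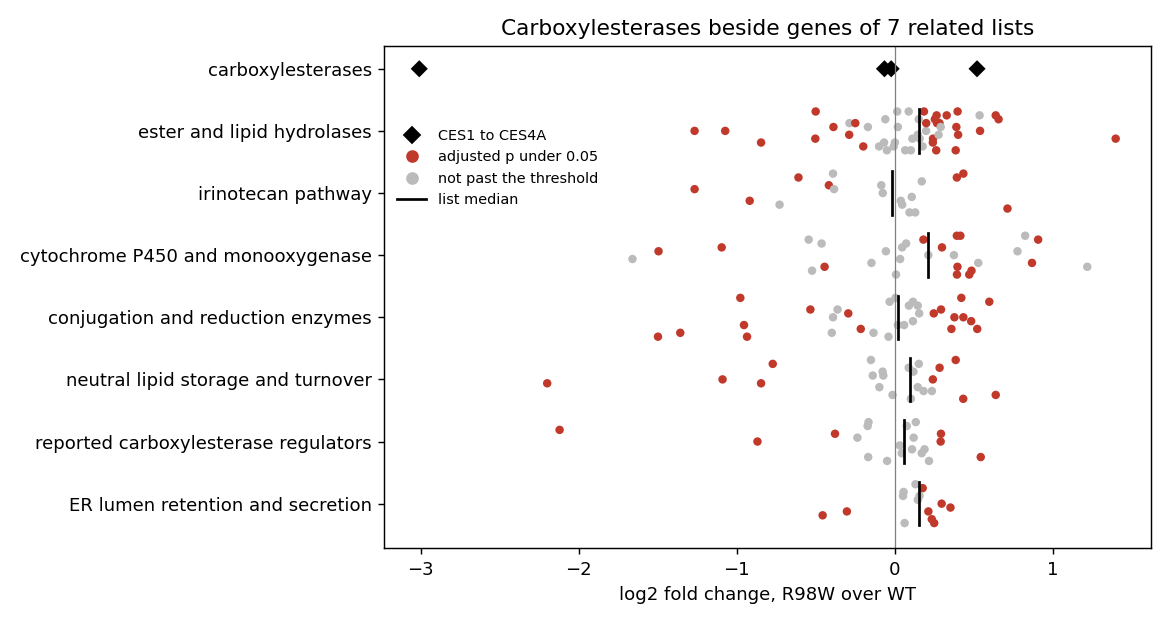
Log2 fold changes (R98W over WT) of CES1 to CES4A as diamonds and of the tested genes of 7 lists as circles, with the list medians as bars. List medians lie between -0.02 and 0.21, and CES3 lies lower than the lowest gene of each list.

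Markers of liver and intestine, where carboxylesterases are best known, were present unevenly. The 10 hepatocyte markers summed to 162 to 194 CPM in R98W and 267 to 283 CPM in WT, nearly all from CPS1, with means of 178 CPM for R98W and 266 CPM for WT, while ALB averaged 0.195 CPM in R98W and 0.174 CPM in WT and 1 marker, APOA2, stayed under 0.1 CPM in every library. The 8 enterocyte markers summed to 67.8 to 87.2 CPM in R98W and 92.2 to 96.3 CPM in WT, mostly from CDH17, and FABP2, SI and APOA4 stayed under 0.1 CPM in every library. Both sums were lower in R98W without overlap. The 6 markers of an embryonic kidney line, HEK293, summed to 130 to 135 CPM in R98W and 98.9 to 109 CPM in WT. This sum was higher in R98W without overlap and came mostly from CD9 and NEFL. NEFL averaged 40.3 CPM in R98W and 18.2 CPM in WT, GATA3 8.14 and 4.52 CPM, and CD9 81.8 and 78.8 CPM. PAX2 and LHX1 of the same list were lower in R98W, with means of 0.223 and 1.001 CPM, against 0.604 and 2.39 CPM in WT. SIM1 stayed under 0.1 CPM in every library. The 6 endothelial markers summed to 0.214 to 0.403 CPM in R98W and 0.412 to 0.895 CPM in WT, with 4 of them, VWF and KDR included, under 0.1 CPM in every library. The 8 leukocyte markers overlapped between the groups, at sums of 9.24 to 10.8 CPM in R98W and 10.43 to 10.99 CPM in WT, mostly from CD14 and ITGAM, and 4 of them, PTPRC and CD3E included, stayed under 0.1 CPM in every library. The sums of the 8 fibroblast markers overlapped too, at 12.4 to 14.1 CPM in R98W and 12.69 to 17.005 CPM in WT, mostly from COL1A1. THY1 of this list, named after its values were seen, was lower in R98W. It had 0.341 ± 0.058 CPM in R98W and 2.01 ± 0.37 CPM in WT. COL1A1, COL3A1, PDGFRA and PDGFRB had slightly higher means in R98W. The part of these markers in the carboxylesterase values was not tested.

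Profiles most like each member were sought among 14236 tested genes that averaged 1 CPM or more, by Pearson correlation of log2(CPM + 0.1) over the 6 libraries. For CES3 they were BHLHB9, TMEM102 and SCRN3, each with a correlation of at least 0.999 and each lower in R98W without overlap, but by less. BHLHB9 had 7.10, 6.71 and 6.29 CPM in R98W and 12.6, 13.8 and 14.4 CPM in WT, a log2 fold change of -1.02, against -1.76 for TMEM102 and -1.51 for SCRN3. For CES1 they were ZNF761, ZNF75D and LIMD1, with correlations of 0.996 to 0.998 and log2 fold changes of 0.37, 0.35 and 0.19; the LIMD1 call ended without R98W replicate 1, R98W replicate 2 or WT replicate 3 (edgeR adjusted p 0.0678 to 0.135) and after a correction for expression level (0.328). For CES2 (POLM, GRWD1 and EHMT1, from 0.979 to 0.989) and CES4A (ORAI3, AC127502.1 and MKLN1-AS, from 0.959 to 0.965) the likeness covers mostly differences between replicates, since none of these 6 genes passed the threshold in edgeR. With 6 libraries in 2 groups, correlations of this size describe the shared group difference and library effects only.

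**Figure D5:**
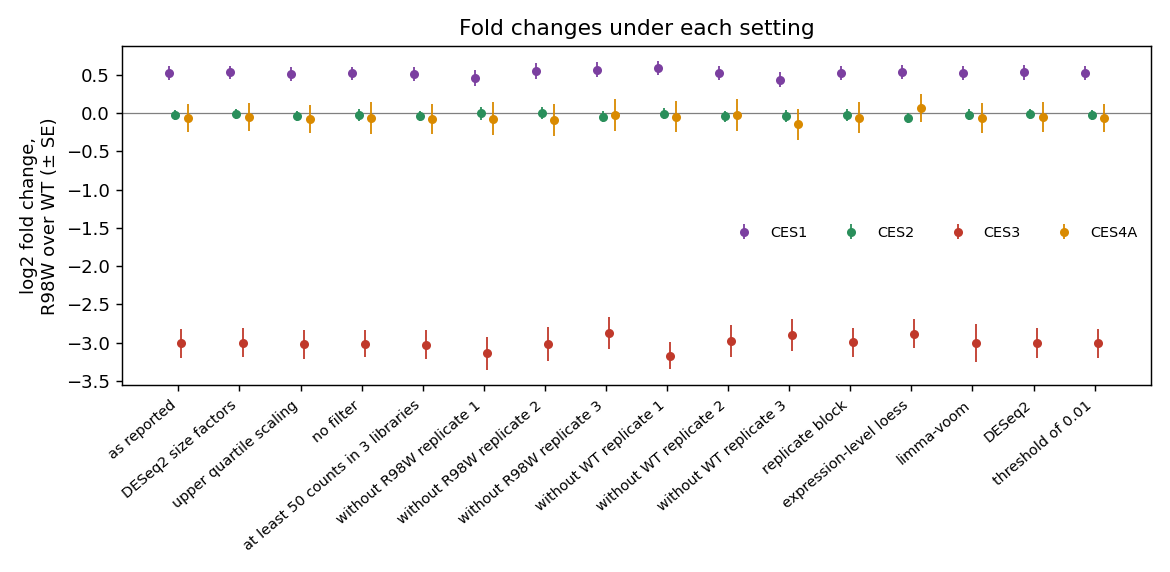
Log2 fold changes (R98W over WT, ± SE) of the 4 genes as reported and under 15 other settings. CES3 stayed between -3.17 and -2.87 and CES1 between 0.44 and 0.58 under these settings, while CES2 and CES4A stayed within 0.15 of 0.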

How the data were processed

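The authors deposited raw read counts per gene for 6 libraries of polyadenylated RNA from A549 cells. Per the submitters' processing notes, CASAVA 1.8, HISAT2 2.1.0, HTSeq 0.11.3 and hg38 were used, with roles, annotation, strand setting and filters not given in the sources used here. Without the strand setting, reads from overlapping genes on opposite strands cannot be told apart. All 58721 identifiers matched GENCODE 29, which gave symbols, positions and exon lengths.

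Genes were filtered by filterByExpr (minimum count 10, minimum total 15), scaled by TMM and tested with edgeR 4.0.16 in R 4.3.3 (quasi-likelihood, all 6 libraries, no covariates). P-values were adjusted by Benjamini-Hochberg over the 20713 tested genes, with a threshold of 0.05. SE was taken from the test statistic and 95% intervals from the t distribution of the fit. Library totals are given in the report, and the biological coefficient of variation was 10%. The pipeline was tested on simulated data.

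The members, lists and tests were chosen with earlier results of these data known. The lists were written from textbook knowledge. Some genes, such as BCHE and NCEH1, are in more than 1 list and are counted in each, so the lists are not separate observations. Named genes were KAT8, the family, genes overlapping it, the 3 nearest tested protein-coding genes on each side of each locus, genes of the 500 kb windows called with an absolute log2 fold change of at least 1, the 4 genes of each list with the smallest p and the 3 genes most like each member; others are marked as chosen after their values were seen. Alternatives used DESeq2 1.42.0, limma 3.58.1, other scalings, filters, a threshold of 0.01, windows of 250 and 1000 kb, a lowess correction for expression level, a replicate block and each library left out. Some genes and sequences that these rules select are not reported here.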

Additional observations from a re-analysis of the deposited data

How the results depend on the processing

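Over 15 alternatives CES3 ran from -3.17 to -2.87 and CES1 from 0.44 to 0.58 on the log2 scale, past the threshold in all 15, and CES2 (-0.07 to -0.002) and CES4A (-0.15 to 0.06) in none. Leaving out 1 library at a time gave 2340 to 3268 higher and 3060 to 3944 lower genes over all tested, 2 to 5 higher and 4 to 8 lower around the loci, and 39 to 48 higher and 25 to 29 lower genes in the 7 lists, where the full data gave 3364, 3839, 5, 7, 50 and 31. Around the loci the higher count was 3 without R98W replicate 1 and 2 without WT replicate 3, and the lower count was 4 without R98W replicate 2, R98W replicate 3 or WT replicate 1. A threshold of 0.01 gave 2143 higher genes over all and 2 higher and 3 lower around the loci. The correction for expression level gave 4 lower there, a window of 250 kb 3 higher, and one of 1000 kb 9 higher and 20 lower, since it takes in more genes. For the calls lost with a library left out or after the correction, the cause was not tested. Same-numbered libraries did not deviate together (correlations -0.0392 to 0.00564). This cannot tell whether they were prepared together, and the labels do not say. With the replicate block 3205 genes were higher and 3678 lower, and CES3 stood at -2.996. Of 822 values for 55 other named genes, 22 lost and 4 gained a call, and 0 reversed. KAT8 gained a call with no filter (0.61, as in the main fit but with a smaller SE) and under the block (1.22). The wide interval (-0.45 to 0.32) limits CES4A, which had 134 to 195 counts per library, and the overlap in sequence with CES1P1 limits CES1.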
